A study of Rattus norvegicus with 8 samples.

Results

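The genes described here are the cytosolic ribosomal proteins, the protein parts of the ribosome that translates nuclear mRNAs. A gene was included when a probe set of the array is annotated to it alone and its symbol is Rpl or Rps with a number, Rplp0, Rplp1, Rplp2 or Rpsa, with the S6 kinases left out. The rule found 48 genes, 33 of the large subunit and 15 of the small subunit, among 14217 genes with a probe set of their own. They have 55 probe sets among the 31042 analysed, and 6 genes with several probe sets are represented by the one with the highest mean. A further 36 probe sets are annotated to several genes with a ribosomal protein among them, and these are described only as a group.

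The arrays hold total RNA from the growth plate of the femur of Rattus norvegicus, the cartilage through which a long bone lengthens. The zones are perichondral, reserve, proliferative and hypertrophic, and each was hybridised once at 42 days of age and once at 46 days, 8 arrays in all. The series is titled for the perichondral and reserve zones. Its design text treats both ages of a zone as replicates, so n = 2 for each of the 4 zones. Each array received RNA pooled from 3 rats. The labels give no treatment, genotype or strain, and do not say whether the zones of 1 age came from the same rats. The spread behind the zone p-values thus mixes pool and age, except where age was fitted as a block. For the age p-values zone was a covariate, so their spread mixes pool with age differences that vary between zones.

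A ribosome has a small subunit, which holds the mRNA and reads its codons, and a large subunit, which joins the amino acids. Each subunit is built in the nucleolus from ribosomal RNA and from proteins that are needed in equal numbers. The mRNAs of most of these proteins begin with a run of pyrimidines, through which the kinase mTOR and the RNA-binding protein Larp1 adjust their translation to growth signals. Cartilage cells of the growth plate divide, enlarge and secrete large amounts of matrix protein.

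Those starts are shown here because they are the feature the family is best known for. RefSeq's promoter table for GRCr8 held 43 of the 48 genes, each with 250 bases before and 50 after the annotated start. The 60 bases from 40 before to 20 after the start follow for 5 genes whose 42-day perichondral and reserve arrays stood above their 42-day proliferative and hypertrophic arrays (Rpl4, Rps23, Rps24, Rpl5 and Rpl11) and for 5 that were flat across zones or ran the other way (Rps15a, Rpl27a, Rpl21, Rpl7a and Rpl24). Capitals mark an uninterrupted run of at least 8 pyrimidines (C or T) that reaches to within 10 bases of the start, and the sequences of Rpl11 and Rpl24 have none.
Rpl4 (chr8:73566437-73566496, plus strand): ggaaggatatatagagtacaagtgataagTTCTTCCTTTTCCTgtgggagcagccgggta
Rps23 (chr2:23814477-23814536, plus strand): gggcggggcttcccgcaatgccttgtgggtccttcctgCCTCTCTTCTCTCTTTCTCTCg
Rps24 (chr16:96477-96536, plus strand): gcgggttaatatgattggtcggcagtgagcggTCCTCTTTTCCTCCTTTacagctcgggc
Rpl5 (chr14:1995206-1995265, minus strand): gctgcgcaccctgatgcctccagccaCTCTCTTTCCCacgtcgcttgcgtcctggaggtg
Rpl11 (chr5:153560783-153560842, minus strand): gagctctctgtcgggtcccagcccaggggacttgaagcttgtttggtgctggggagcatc
Rps15a (chr1:181860265-181860324, minus strand): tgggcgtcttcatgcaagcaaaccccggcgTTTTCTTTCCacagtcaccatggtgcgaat
Rpl27a (chr1:172974533-172974592, plus strand): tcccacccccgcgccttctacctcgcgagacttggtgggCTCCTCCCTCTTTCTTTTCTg
Rpl21 (chr12:13386134-13386193, minus strand): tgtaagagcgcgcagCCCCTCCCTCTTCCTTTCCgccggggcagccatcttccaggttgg
Rpl7a (chr3:30637096-30637155, plus strand): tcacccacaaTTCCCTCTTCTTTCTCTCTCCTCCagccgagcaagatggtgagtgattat
Rpl24 (chr11:58128386-58128445, minus strand): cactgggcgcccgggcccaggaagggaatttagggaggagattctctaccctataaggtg
Such a run was present in 27 of 43 members (62.8%) and in 13.2% of all 33469 starts in the table. It marks a run near the annotated start, and not an mRNA that begins with one. The runs of Rpl5, Rps15a, Rpl21 and Rpl7a end before the annotated start, and that of Rps28 begins after it. How exact the annotated starts are was not tested, also for the members without a run. A C at the annotated start followed by at least 4 pyrimidines was present in 12 members (27.9%) and in 2.63% of all starts. Over the whole window of each gene and on both strands, CCGGAAG was found in 10 members (23.3%, against 8.75% of all), AAGATGGC in 4 (9.3%, against 3.17%) and TATAAA in 6 (14%, against 14.2%). The longest run, 24 bases, lies just before the start of Rpl7a. Members with a run and members without one had close medians. The median spread of the zone means, the highest minus the lowest, was 0.82 on the log2 scale for the 27 with a run and 0.87 for the 16 without.

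Levels are given as log2(intensity + 16) after quantile normalization, a scale on which the median of all probe sets is 8.25. Differences between zones are differences of these values and understate those of dim genes. The cartilage collagen gene Col2a1 was the check of tissue, with values from 15.86 to 17.80 on the 8 arrays. Col10a1, the collagen of hypertrophic cartilage, read 16.93 and 15.26 on the hypertrophic arrays and at most 13.78 on the others. Other markers of that zone were not as clear against reserve: Mmp13, a matrix protease, read 14.73 and 14.09 there but 14.75 and 14.73 in reserve arrays, and Vegfa and Spp1 had their highest values in reserve arrays (11.52 at 42 days and 9.81 at 46 days). Both hypertrophic arrays were above both perichondral arrays for 4 of 6 measured markers, Col10a1 included (17.6% of all genes). They were above both reserve arrays for 2 (18.8%) and above both proliferative arrays for 2 (15.8%). As a coarse guide to background, the 0.95 quantile of 26 genes typical of other organs was 9.23. Of the members, 37 were above this level on all 8 arrays, 5 were below it on all 8 (Rpl3l, Rpl28, Rpl30, Rps4y2 and Rpl26l1) and 6 were mixed. RNA integrity differed between arrays: the ratio of the 3′ to the 5′ control probe set of Gapdh ran from 3.63 (hypertrophic, 46 days) to 8.15 (reserve, 42 days).

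The median member read 12.63 and 12.12 in the perichondral arrays at 42 and 46 days, 12.64 and 12.03 in reserve, 11.74 and 12.15 in proliferative and 11.80 and 11.97 in hypertrophic arrays. The highest medians were thus the 42-day perichondral and reserve arrays, and the lowest the 42-day proliferative and hypertrophic arrays. Members varied less than the typical gene. Their median spread of zone means was 0.85, against 1.49 over all genes, and their median difference between arrays of 1 zone, averaged over the 4 zones, was 0.69, against 1.09. The typical gene was much dimmer, with all-gene medians of 8.30 to 8.48 on the arrays. Members were not compared with genes of like intensity, so lower variation cannot be told apart from brightness here. The reserve zone had the highest mean for 19 members, perichondral for 14, proliferative for 8 and hypertrophic for 7. Over all genes these shares were 29%, 21.2%, 24.4% and 25.3%. The zone with the lowest mean was hypertrophic for 19 members, reserve for 14, proliferative for 13 and perichondral for 2. In the same order the shares over all genes were 27.2%, 24.5%, 25.9% and 22.4%.

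**Figure D1:**
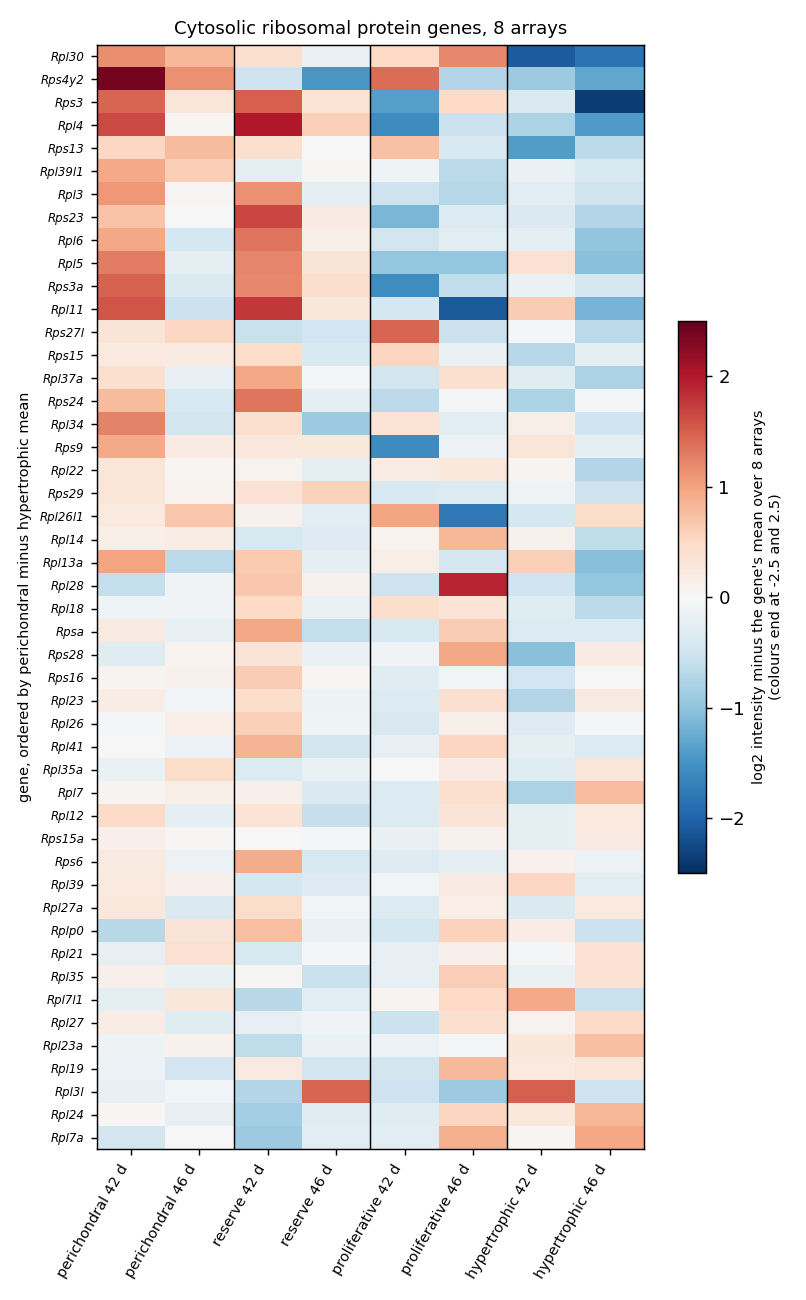
Each row is a ribosomal protein gene and each column an array; colour is the log2 intensity minus that gene's mean over the 8 arrays. Genes are ordered by the perichondral minus hypertrophic difference. The 42-day perichondral and reserve columns hold most of the strong red, from Rpl4 and Rps3 to Rpl11, while Rpl24 and Rpl7a at the foot run from blue in reserve to red in hypertrophic arrays.

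No member passed the threshold of limma (Benjamini-Hochberg adjusted p below 0.05 over 31042 probe sets) in any of the 6 zone pairs, in the test for any zone difference or with age. In the test for any zone difference 12 probe sets passed (0.0387% of those tested), and the smallest adjusted p of a member was 0.511 (Rpl4). At an unadjusted p under 0.05 there were 3 members, Rpl4, Rps3a and Rps4y2, against 6.2% of all probe sets. With age fitted as a block 7 members had such a p, for which no share over all probe sets was taken. In that fit 96 probe sets passed (0.309%) and 0 members, and the smallest adjusted p of a member was 0.0922 (Rpl4). The adjusted p-values given below for zone differences of single genes are from the fit without the block. The values that follow therefore describe these arrays.

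Under quantile normalization the widest member median was between the perichondral and hypertrophic zones, although reserve against hypertrophic was the wider pair on the values as deposited (0.65) and with medians centred (0.90). In the perichondral zone 38 of 48 members had the higher mean, against 50.8% of all genes, and the median difference was 0.39 against 0.02 over all genes. All 15 small subunit members were higher in the perichondral zone, with a median difference of 0.61, and 23 of 33 large subunit members, with a median of 0.23. The 15 of 15 held on the values as deposited and with medians centred, with small subunit medians of 0.85 and 0.92 and large subunit medians of 0.39 and 0.46. It did not hold at each age: under quantile normalization 15 small subunit members were higher at 42 days and 11 at 46 days. The count also depends on the probe set. Dimmer probe sets of Rpsa gave -1.03 and 0.12, against 0.36, and that of Rps24 gave -0.73. Both perichondral arrays lay above both hypertrophic arrays for 17 members (35.4%, against 18.3% of all genes) and below both for 4 (8.33%, against 17.6%). Fewer cells that make these mRNAs and less of them per cell cannot be told apart in such bulk RNA. limma called 9 probe sets in this pair (0.029%) and 0 members, and at an unadjusted p under 0.05 it had 5 members against 6.17% of probe sets. The median was 0.18 without the 42-day perichondral array, 0.58 on the values as deposited and 0.65 with medians centred, and it was -0.076 over the 36 probe sets of several genes.

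For reserve against hypertrophic the median difference was 0.34 (0.07 over all genes), with 30 of 48 members higher in reserve. Both reserve arrays were above both hypertrophic arrays for 13 members (27.1%, against 20.6%) and below for 6 (12.5%, against 18.8%). Under quantile normalization that median rested on the 42-day arrays, 1 per zone. It was 0.68 at 42 days and -0.016 at 46 days, where it became 0.26 on the values as deposited and 0.42 with medians centred. Without the 42-day reserve array the pair's median was 0.036, without the 46-day reserve array 0.68, and with medians centred 0.90. limma called 7 probe sets (0.0226%) and 0 members, with 4 members at an unadjusted p under 0.05 against 8.1%.

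Between the perichondral and proliferative zones the median was 0.13, and 34 members were higher in the perichondral zone. These were 0.43 with 40 members higher as deposited and 0.53 with 41 with medians centred. Both arrays were above for 11 (22.9%, against 17.4%) and below for 1, Rpl18 (2.08%, against 17.1%). Reserve against proliferative gave 0.029, with 26 members higher in reserve, 10 above on both arrays (20.8%, against 21.3%) and 7 below (14.6%, against 19.1%). That even split is particular to quantile normalization: the median was 0.34 with 36 members higher as deposited and 0.61 with 38 with medians centred, where the all-gene median was 0.23. At 42 days these medians were 0.39 and 0.49 and at 46 days -0.18 and -0.23. The sign at 46 days turned with the scaling: it was 0.29 and 0.24 as deposited and 0.46 and 0.53 with medians centred. The perichondral minus proliferative median was -0.033 without the 42-day proliferative array, and the reserve minus proliferative median ran from -0.14 without the 42-day to 0.31 without the 46-day reserve array. limma called 0 probe sets (0%) in the first pair and 7 (0.0226%) in the second, and 0 members in either. At an unadjusted p under 0.05 each pair had 5 members, against 5% and 7.64% of probe sets.

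The pair in the series title had a median near 0. The perichondral minus reserve median was 0.026 with 24 members on each side, and it was -0.021 as deposited and -0.19 with medians centred. Leaving out 1 array moved it between -0.23 (without reserve, 46 days) and 0.28 (without reserve, 42 days). Both perichondral arrays were above both reserve arrays for 12 members (25%, against 16.7%) and below for 2, Rpl28 and Rps29 (4.17%, against 18.4%). Proliferative and hypertrophic arrays gave 0.045, with 27 members higher in proliferative, a median that was 0.002 as deposited and -0.022 with medians centred. It ran from -0.14 without the 46-day to 0.29 without the 42-day proliferative array. In that pair 7 members had both proliferative arrays above (14.6%, against 15.5%) and 5 below (10.4%, against 15.8%). limma called 0 (0%) and 4 (0.0129%) probe sets in these pairs and 0 members, with 1 member each at an unadjusted p under 0.05, against 3.75% and 5.52%.

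**Figure D2:**
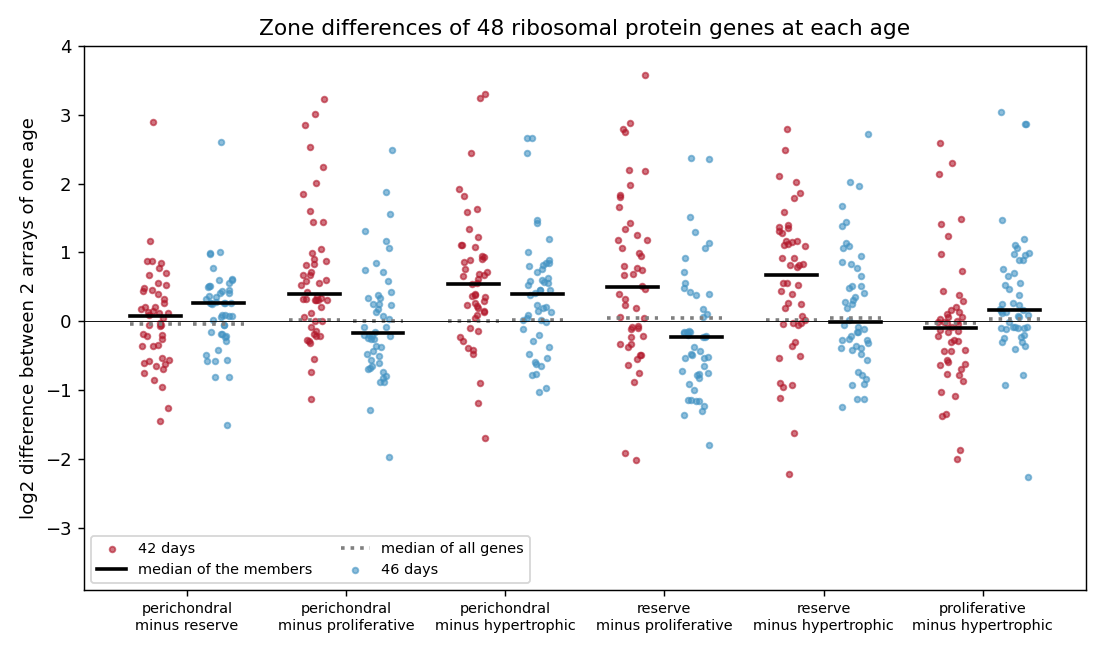
Points are the 48 members; the vertical axis is the log2 difference between 2 zones, taken between arrays of the same age (red 42 days, blue 46 days). Black bars are member medians and dotted bars medians over all genes. The black bars of the 4 middle pairs sit between 0.39 and 0.68 at 42 days, while at 46 days those against the proliferative zone lie below 0 (above 0 under the other 2 scalings).

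Among large subunit proteins above the other-organ level on all 8 arrays, Rpl4, which reaches into the wall of the tunnel that the new protein leaves by, had the widest spread of zone means (2.41; the dim Rpl30 had 2.96). It read 13.97 and 12.35 in perichondral (42 and 46 days), 14.32 and 12.90 in reserve, 10.74 and 11.77 in proliferative and 11.52 and 10.88 in hypertrophic arrays. All 4 perichondral and reserve arrays were thus above all 4 others. In deposited units the same 8 values were 22130.5, 4913.12, 26497.4, 8031.31, 1776.19, 2698.52, 3074.56 and 1751.01. Reserve minus hypertrophic was 2.41 ± 0.67 (SE; 5.3-fold, limma adjusted p = 0.407), and reserve minus proliferative was 2.36 ± 0.67 (adjusted p = 0.427). Perichondral minus hypertrophic was 1.95 ± 0.67 (adjusted p = 0.712) and perichondral minus proliferative 1.90 ± 0.67 (adjusted p = 0.963).

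Rpl5 and Rpl11 carry the 5S ribosomal RNA into the large subunit, and when free they bind Mdm2 and stabilise p53. Rpl5 read 13.94 and 12.41 in perichondral, 13.89 and 12.99 in reserve, 11.70 and 11.70 in proliferative and 13.05 and 11.61 in hypertrophic arrays. Its perichondral and reserve arrays lay above the proliferative ones, and its 42-day hypertrophic array stood among them. Reserve minus proliferative was 1.74 ± 0.67 for Rpl5 (limma adjusted p = 0.592) and perichondral minus proliferative 1.48 ± 0.67 (adjusted p = 0.963). Rpl11 read 12.37 and 10.26, 12.56 and 11.07, 10.35 and 8.70, and 11.44 and 9.63 in the same order of arrays. Reserve minus proliferative was 2.29 ± 0.81 (adjusted p = 0.541) and perichondral minus proliferative 1.79 ± 0.81 (adjusted p = 0.963). In every zone the younger array of Rpl11 was the higher, by 1.49 to 2.10.

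Rpl3, which lies near the centre where peptide bonds form, read 11.84 and 10.79 in perichondral, 11.90 and 10.53 in reserve, 10.24 and 10.04 in proliferative and 10.51 and 10.27 in hypertrophic arrays. Its lowest reserve value was just above its highest hypertrophic value. A second probe set of Rpl3 did not share this, with a reserve minus hypertrophic difference of -0.35 against 0.83. Rpl6, also of the large subunit, read 12.88 and 11.46 in perichondral, 13.24 and 12.04 in reserve, 11.44 and 11.61 in proliferative and 11.65 and 10.91 in hypertrophic arrays. Its reserve arrays were above all proliferative and hypertrophic arrays, and its 46-day perichondral array was among them. Rpl39l1, annotated as a relative of the tunnel protein Rpl39, read 11.29 and 10.98 in the perichondral zone and between 9.67 and 10.39 on the other 6 arrays. Perichondral minus reserve was 0.88 ± 0.56 (limma adjusted p = 1).

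Of the small subunit, Rps23 sits at the decoding centre. It read 14.06 and 13.34 in perichondral, 15.01 and 13.57 in reserve, 12.22 and 13.01 in proliferative and 12.98 and 12.62 in hypertrophic arrays. As for Rpl4, all perichondral and reserve arrays were above all others. By narrower margins the same held for Rpl3, for Rps16 (lowest 11.47, against 11.45) and for Rps29 (lowest 14.81, against 14.63). How many of all genes share this was not counted. For Rps23 reserve minus hypertrophic was 1.49 ± 0.65 (2.8-fold, limma adjusted p = 0.597). Perichondral minus reserve was -0.59 ± 0.65, a sign that turned to 0.14 without the 42-day reserve array.

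Rps3a, at the platform of the small subunit, read 13.99 and 12.16 in perichondral, 13.71 and 12.97 in reserve, 10.97 and 11.91 in proliferative and 12.35 and 12.11 in hypertrophic arrays. Its proliferative arrays were the lowest of all 8. Reserve minus proliferative was 1.90 ± 0.65 (limma adjusted p = 0.524), perichondral minus proliferative 1.63 ± 0.65 (adjusted p = 0.963) and proliferative minus hypertrophic -0.79 ± 0.65. Rps3, part of the channel through which mRNA enters, read 9.98 and 8.81 in perichondral, 10.01 and 8.86 in reserve, 7.13 and 9.01 in proliferative and 8.15 and 6.14 in hypertrophic arrays. Only 2 of its arrays were above the other-organ level. Reserve minus hypertrophic was 2.29 ± 0.98 (adjusted p = 0.583) and perichondral minus hypertrophic 2.25 ± 0.98 (adjusted p = 0.78).

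Rps13, a small subunit protein, read 11.23 and 11.49 in perichondral, 11.11 and 10.72 in reserve, 11.44 and 10.33 in proliferative and 9.31 and 10.06 in hypertrophic arrays, so that both hypertrophic arrays were the lowest. Proliferative minus hypertrophic was 1.20 ± 0.58 (limma adjusted p = 0.9). Rps9, another member that lies by the mRNA entry, read 8.47 and 9.91 in proliferative arrays, and proliferative minus hypertrophic was -0.88 ± 0.64 (adjusted p = 0.933). Rps6, the substrate of the S6 kinases, read 14.30 and 13.92 in perichondral, 14.99 and 13.66 in reserve, 13.74 and 13.83 in proliferative and 14.17 and 13.93 in hypertrophic arrays, with the 42-day reserve array the highest. Rpsa, a small subunit protein also known as a laminin receptor, read 13.21 in that array and between 11.65 and 12.87 on the other 7.

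**Figure D3:**
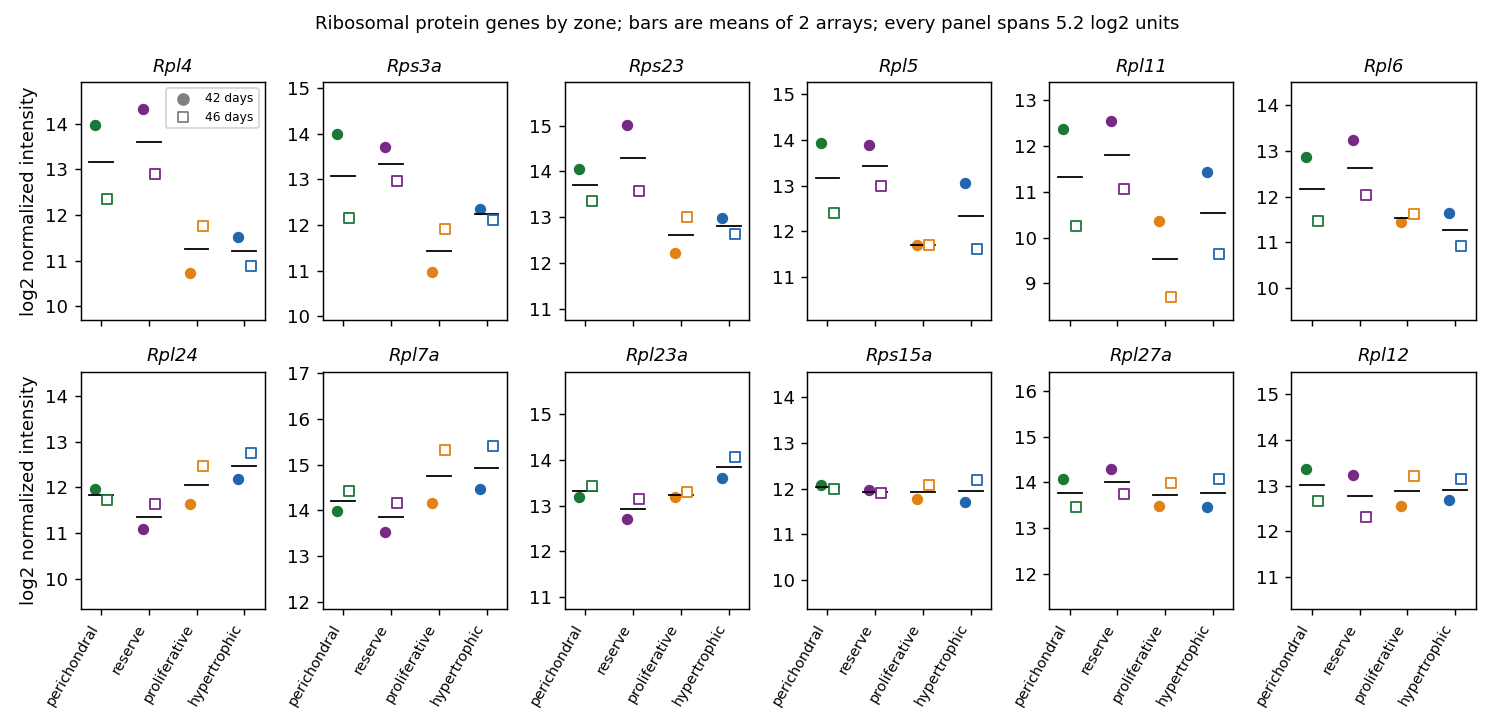
Each panel is a gene and each point an array (filled circle 42 days, open square 46 days), in log2 normalized intensity; bars are zone means of 2 arrays and every panel spans the same number of units. The top row holds members that were lowest in the proliferative or hypertrophic zone, such as Rpl4 (reserve mean 13.61, hypertrophic mean 11.20). The bottom row holds 3 members highest in the hypertrophic zone and 3 with nearly level means.

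Some members ran the other way. Rpl24, which forms a bridge between the subunits and whose disruption in the mouse strain Belly spot and tail gives a kinked tail, read 11.96 and 11.73 in perichondral, 11.08 and 11.63 in reserve, 11.63 and 12.46 in proliferative and 12.19 and 12.76 in hypertrophic arrays. Both hypertrophic arrays were above all perichondral and reserve arrays. Reserve minus hypertrophic was -1.12 ± 0.55 (limma adjusted p = 0.634), the lowest value of any member in this pair, and it was -1.11 at 42 days and -1.12 at 46 days. Rpl7a read 13.98 and 14.43 in perichondral, 13.53 and 14.17 in reserve, 14.17 and 15.31 in proliferative and 14.46 and 15.41 in hypertrophic arrays, and reserve minus hypertrophic was -1.08 ± 0.73 (adjusted p = 0.731). For Rpl23a, which lies at the tunnel exit, the hypertrophic values 13.61 and 14.07 were the highest of the 8 and the reserve values 12.70 and 13.15 the lowest. Reserve minus hypertrophic was -0.91 ± 0.58 (adjusted p = 0.722). Rpl19, another bridge protein, averaged 13.03 ± 0.23 (SD, n = 2) in perichondral and 13.60 ± 0.04 in hypertrophic arrays, a difference of -0.57 ± 0.63 (SE; adjusted p = 0.917).

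Over the 8 arrays the correlation of each member with the mean of the other members was also taken, a value that mixes zone and age. It was above 0 for 37 members and above 0.5 for 24, with a median of 0.48. Rpl4 was the highest at 0.88, and Rpl23a (-0.71), Rpl7a (-0.62), Rpl24 (-0.53) and Rpl21 (-0.53) were the lowest. The order was not that of the zones alone. Rpl21 was among the flattest members across zones, while Rpl19, highest in the hypertrophic zone, had 0.026. Under quantile normalization Rpl23a, Rpl7a and Rpl21 were also higher at 46 days in every zone. These are descriptions over arrays that share zones, ages and normalization.

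The flattest members had zone means that differed by little. For Rps15a the zone means spread over 0.11 and the 8 values ran from 11.71 to 12.19. The spread was 0.23 for Rpl7, 0.24 for Rpl12 at the base of the stalk, 0.29 for Rpl27a, 0.37 for Rpl21, 0.39 for Rpl35a, 0.40 for Rpl23 and 0.42 for Rpl26. Level means did not mean level arrays. Rpl7 read 11.43 at 42 days and 12.98 at 46 days in the hypertrophic zone, and Rpl12 fell between 12.31 and 13.36. Rps28, which had its highest value, 14.08, in the 46-day proliferative array, was -0.55 ± 0.63 for perichondral minus proliferative (limma adjusted p = 0.971).

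The stalk that recruits elongation factors was represented by its base protein Rplp0 alone. It read 9.10 and 10.12 in perichondral, 10.55 and 9.63 in reserve, 9.37 and 10.37 in proliferative and 9.99 and 9.27 in hypertrophic arrays, with overlapping zones.

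Genes of paralogs, some of which replace a common ribosomal protein in certain tissues, were mostly dim or uneven. Rps27l alone was above the other-organ level on all 8 arrays. Of 9 listed, 5 were measured here, and 0 passed in any pair. Rps27l, a relative of Rps27 that p53 induces, read 12.23 and 12.44 in perichondral, 11.35 and 11.44 in reserve, 13.36 and 11.37 in proliferative and 11.88 and 11.24 in hypertrophic arrays. Its perichondral arrays were above its reserve arrays by 0.94 ± 0.63 (limma adjusted p = 1), and its proliferative arrays were 1.99 apart. Reserve minus proliferative, -0.97, became 0.022 without the 42-day proliferative array. Rps4y2 read 8.46 and 7.22 in perichondral, 5.56 and 4.61 in reserve, 7.47 and 5.34 in proliferative and 5.17 and 4.78 in hypertrophic arrays, all below the other-organ level. Perichondral minus hypertrophic was 2.87 ± 1.06 (adjusted p = 0.733), perichondral minus reserve 2.75 ± 1.06 (adjusted p = 1), proliferative minus hypertrophic 1.44 and reserve minus proliferative -1.32. Rpl7l1 read 9.09 to 10.72 on the 8 arrays, with reserve minus hypertrophic at -0.67 ± 0.66, and a second probe set of it gave 1.21.

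Rpl3l, the paralog of Rpl3 known from muscle, was at or below 7.04 on all 8 arrays. It read 4.82 and 7.00 in reserve and 7.04 and 5.05 in hypertrophic arrays, so its zone differences rested on single arrays. Rpl26l1 likewise read 9.0 and 6.23 in the proliferative zone, the widest gap of any member within a zone. Rpl28 followed with 5.16 and 7.57 in that zone, which set its perichondral minus proliferative difference of -1.03 and its proliferative minus hypertrophic difference of 1.42. Rpl30 stayed below the other-organ level too, yet its 2 hypertrophic values, 4.71 and 4.95, were the lowest of the 8. It read 7.96 and 7.62 in perichondral, 7.19 and 6.63 in reserve and 7.29 and 7.99 in proliferative arrays. Perichondral minus hypertrophic was 2.96 ± 1.11 (limma adjusted p = 0.744), proliferative minus hypertrophic 2.81 ± 1.11 (adjusted p = 0.896) and reserve minus hypertrophic 2.08 ± 1.11 (adjusted p = 0.666).

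Of 16 listed ribosomal protein genes linked to growth or the skeleton, many through the inherited anaemia of Diamond and Blackfan, 7 were measured here: Rpl5, Rpl11, Rpl24, Rpl26, Rpl35a, Rps23 and Rps24. Perichondral minus hypertrophic was above 0 for 6 of them, all but Rpl24, with a median of 0.61, and 0 passed. It was above 0 for 38 of all 48 members (79.2%) and for 50.8% of all genes, so these 7 were not set apart from the family by that count. Rps24 read 13.07 and 11.87 in perichondral, 13.60 and 12.03 in reserve, 11.62 and 12.23 in proliferative and 11.49 and 12.25 in hypertrophic arrays. At 42 days its perichondral and reserve values were thus above the other zones, and at 46 days they were slightly below them. A second, dimmer probe set of Rps24 gave -0.73 for perichondral minus hypertrophic, against 0.61. Rpl35a ran from 15.88 to 16.67 and Rpl26 from 13.43 to 14.43, with overlap between most zones.

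Age was the other axis. The member median of 46 minus 42 days was -0.25 in perichondral (31 of 48 lower), -0.57 in reserve (34 lower), 0.46 in proliferative (13 lower) and -0.22 in hypertrophic arrays (26 lower), while over all genes it lay between -0.09 and -0.03. The proliferative direction turned with the scaling, to -0.11 as deposited and -0.45 with medians centred. The negative sign in the other 3 zones held under both. With medians centred the median zone or age difference of all genes lay up to 0.23 from 0, and centred values are to be read against that shift. With zone as a covariate the median age difference was -0.12 (-0.06 over all genes), -0.46 as deposited and -0.71 with medians centred. The arrays at 42 days also had the higher Gapdh ratio in each zone (4.47 against 3.78, 8.15 against 3.96, 7.10 against 5.39 and 4.30 against 3.63). With that ratio as a covariate the median was 0.22. What part RNA integrity has in these differences was not tested beyond that fit.

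**Figure D4:**
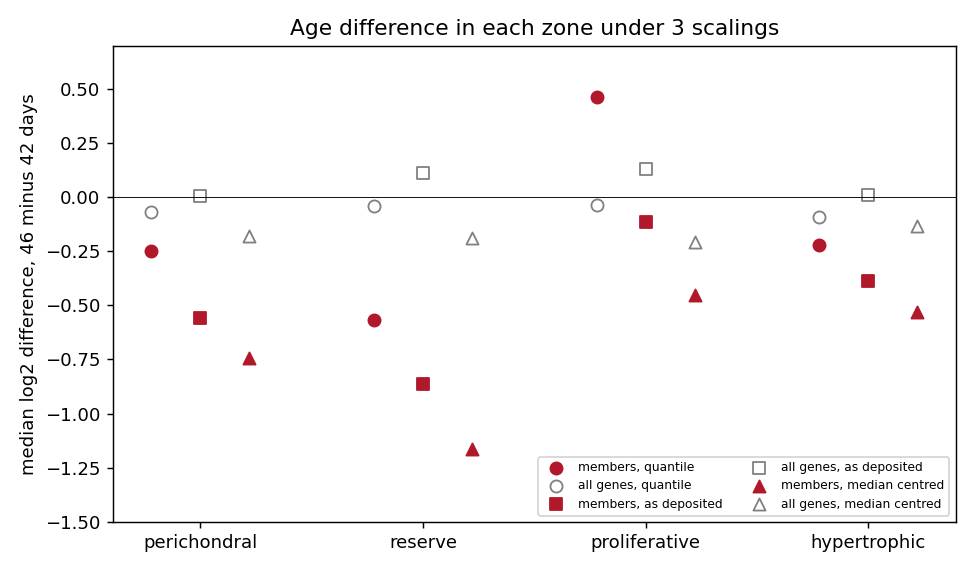
Median log2 difference of 46 minus 42 days in each zone, 1 array against 1, for the 48 members (red) and all genes (open) under 3 scalings of the arrays. Members lie below 0 in every zone as deposited and with medians centred, and the quantile-normalized proliferative value, 0.46, is the exception.

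limma called 0 probe sets with age (0%) and 0 members; at an unadjusted p under 0.05 there were 6 members, against 8.43% of probe sets. Of these, 5 were lower at 46 days (Rpl11, Rpl13a, Rpl34, Rpl5 and Rpl6) and Rpl7a was higher. At 46 days 6 members were lower in all 4 zones (12.5%, against 9.28% of genes) and 4 were higher in all 4 (8.33%, against 7.32%). Rpl11 differed most, by -1.76 ± 0.36 (SE; adjusted p = 0.118). Its adjusted p was 0.0442 on the values as deposited, where 45 probe sets were called (0.145%), and 0.0108 with medians centred, where 140 were (0.451%).

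Rpl13a, which can also leave the ribosome to silence inflammatory mRNAs, read 15.76 and 14.12 in perichondral, 15.43 and 14.53 in reserve, 14.93 and 14.35 in proliferative and 15.36 and 13.70 in hypertrophic arrays. The younger array was higher in each zone, and the age difference was -1.20 ± 0.38 (limma adjusted p = 0.441, and 0.0248 with medians centred). Rpl34 read 14.41 and 12.70, 13.57 and 12.25, 13.51 and 12.90, and 13.30 and 12.67 in the same order. Its age difference was -1.07 ± 0.35 (adjusted p = 0.442, and 0.0198 with medians centred). Rpl5 gave -0.97 ± 0.35 (adjusted p = 0.495) and Rpl6 -0.79 ± 0.36 (adjusted p = 0.568). Rpl7a, at 0.80 ± 0.36 (adjusted p = 0.571), was higher at 46 days in all 4 zones, a direction that was gone with medians centred (-0.025). Rpl21, Rpl23a and Rpl35a were the others higher in all 4, by 0.43, 0.31 and 0.41 under quantile normalization alone. The signs turned to -0.17, -0.23 and -0.18 on the values as deposited and to -0.42, -0.48 and -0.42 with medians centred.

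The 36 probe sets annotated to several genes, of which 30 were above the other-organ level on all arrays, gave a partly different picture. Their median was 12.63 and 12.28 in perichondral, 12.76 and 11.99 in reserve, 11.99 and 12.82 in proliferative and 12.05 and 12.61 in hypertrophic arrays. At 42 days the perichondral and reserve zones were the higher, as for the members, and at 46 days the lower under quantile normalization. At 46 days reserve minus proliferative was -0.52 and reserve minus hypertrophic -0.40. These were 0.0285 and 0.12 as deposited and 0.32 and 0.29 with medians centred. Perichondral minus proliferative at that age, -0.57, was -0.088 as deposited and 0.083 with medians centred. Perichondral minus hypertrophic was 0.19 at 42 days and -0.44 at 46 days, the latter 0.033 as deposited and 0.085 with medians centred.

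Other genes of translation were compared over the perichondral and hypertrophic zones, where the member median was widest under quantile normalization, and 0 passed in any list. Of 11 elongation and release factors 8 were higher in the perichondral zone, with a median of 0.54. Eef1a1, which brings the aminoacyl-tRNA to the ribosome, read 14.14 and 13.62 in perichondral, 14.63 and 14.59 in reserve, 12.00 and 12.29 in proliferative and 12.21 and 12.57 in hypertrophic arrays. Like Rpl4, Rps23, Rpl3, Rps16 and Rps29, it was higher on all perichondral and reserve arrays than on all others. The share of all genes with this order was not taken. Its perichondral minus hypertrophic difference was 1.49 ± 0.58 (limma adjusted p = 0.762). Eef1b2, a subunit of its exchange factor, gave 2.89 ± 1.05 (adjusted p = 0.725; leaving out the hypertrophic array at 46 days made it 0.88), the release factor Gspt1 gave 1.58 ± 0.62 (adjusted p = 0.762) and Eef1a2, the form of muscle and nerve, gave -2.62 ± 1.11 (adjusted p = 0.777) while below the other-organ level on all 8 arrays. Rack1, a protein of the small subunit named outside the rule, read 11.16 and 10.67, 12.06 and 10.22, 9.46 and 10.23, and 10.18 and 10.26 in the same order of arrays.

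Of 32 initiation factors 19 were higher in the perichondral zone (median 0.28), and 12 of the 32 were above the other-organ level on all arrays. Eif3f and Eif3c, subunits of the factor that helps bring mRNA to the small subunit, gave 2.25 ± 0.80 and 1.95 ± 0.93 (SE), but 0.93 and 0.33 without the 46-day hypertrophic array. Of 43 ribosome biogenesis genes 22 were higher (median 0.08), and 6 of the 43 were above the other-organ level throughout. Nip7 gave 1.98 ± 0.74. Wdr36 read 5.91 and 9.24 in hypertrophic arrays, and its difference of 1.87 ± 0.96 was 0.20 without the 42-day one. Of 17 genes that set translation to growth signals 10 were higher (median 0.14), and 4 of the 17 were above that level throughout. Rps6ka3, an S6 kinase family gene, gave 3.86 ± 1.25. Rheb, the activator of mTOR, read 10.23 and 4.65 in hypertrophic arrays, and its difference of 2.72 ± 1.30 was -0.0701 without the 46-day one. The widest differences of these 3 lists included genes below the other-organ level on all 8 arrays (Eif2b2, Eif2b4, Ebna1bp2, Polr1b, Rptor and Akt1s1), for which no size is given. The leave-out values were added after seeing the data. The assembly and signalling lists had medians closer to the 0.02 of all genes than the members did. They were also dimmer than the members, and differences of dim genes are understated on this scale. That contrast thus cannot be told apart from brightness.

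Markers of other cells also differed between the arrays. The summed intensity of 10 fibrous connective tissue genes was 146600 and 54310 in perichondral, 145500 and 123000 in reserve, 16420 and 5854 in proliferative and 221000 and 9813 in hypertrophic arrays, and 2 of the 10 were above the other-organ level throughout. For 11 leukocyte and marrow genes the sums were 4105 and 1505, 45010 and 40750, 2106 and 2064, and 21550 and 1885, with 0 of the 11 above it throughout. The chondrocyte list, with 8 of 10 above it throughout, summed to between 322100 and 706700 in the perichondral and reserve arrays and to 751900, 283100, 426100 and 86740 in the others. None of these genes was listed at 0. Their part in the member differences was not tested.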

How the data were processed

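Each of 8 Affymetrix arrays measured RNA of 1 growth plate zone at 1 age. The deposited values are linear intensities. MAS5, GCOS and RMA appear in the submitters' processing notes, with no version and no stated role. The mean intensity after trimming a share of 0.02 was 500.1 to 500.2 on every array. No genome build was used for these values.

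Of 31099 probe sets 57 controls were left out. Intensities were taken as log2(intensity + 16) and quantile normalized with limma 3.58.1 in R 4.3.3. Zone means were fitted over all 8 arrays (eBayes with trend, with 4 residual degrees of freedom and a prior worth 12.58) and age with zone as a covariate. P-values were adjusted by Benjamini and Hochberg over all probe sets, and the scripts were tested on simulated data. The number of arrays limits the precision. Detection calls were not used here.

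Symbols are those of the platform annotation, 20758 of them brought up to date by gene identifier; 20826 probe sets had 1 symbol, 436 several and 9780 none. The members, lists and rules were chosen with earlier results of these data known. Named were members past the threshold, the 4 with the largest difference in each direction of each pair, those with the widest and narrowest zone spread or the widest gap within a zone, the listed families, up to 4 genes per pathway list by perichondral minus hypertrophic difference, and the 5 genes most correlated with the member mean. Members shown for age, the members below 0 in correlation and Rpl3, Rpl6, Rps6, Rps16, Rps29, Rpsa, Rps28 and Rpl18 where outside that rule were chosen after their values were seen. Alternatives were other scalings, pseudocounts, filters, probe set choices, covariates and leaving out each array.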

Additional observations from a re-analysis of the deposited data

Results flagged for a closer look

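The member median of 46 minus 42 days had opposite signs between zones: -0.25 in perichondral, -0.57 in reserve and -0.22 in hypertrophic arrays against 0.46 in proliferative arrays. The 36 probe sets annotated to several genes gave -0.24 in perichondral and -0.37 in reserve against 0.44 in proliferative and 0.47 in hypertrophic arrays. Each value compares 1 array with 1 array, so the difference between zones was not tested. As deposited, all of these medians were below 0, at -0.11 for the members and -0.08 for the probe sets of several genes in the proliferative zone and -0.08 for the latter in the hypertrophic zone. With medians centred the same values were -0.45, -0.42 and -0.23.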

How the results depend on the processing

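No member was called in a zone pair under any alternative run, with age as a replicate block included (0 members in each of the 6 pairs and in the test for any zone difference, smallest adjusted p 0.0922 there; over all probe sets 0.00966% to 0.193% were called in a pair). Age differences correlated between zones with r from 0.0225 to 0.0806 over all probe sets, so arrays of an age were not treated as pairs. Over the members r ran from -0.0478 to 0.549 (perichondral and reserve) and was 0.411 for perichondral and hypertrophic, so that reason does not cover them. With age as a block the limma adjusted p of Rpl11 for reserve minus proliferative was 0.093, against 0.541 without it. With age, 1 member was called as deposited and 3 with medians centred. On the values as deposited the perichondral minus hypertrophic median was 0.58. With medians centred the medians were -0.19 (perichondral minus reserve), 0.65 (perichondral minus hypertrophic), 0.61 (reserve minus proliferative), 0.90 (reserve minus hypertrophic) and -0.71 (age). With the Gapdh ratio as a covariate perichondral minus reserve was 0.17, and in the probe sets of several genes, added after seeing the data, perichondral minus hypertrophic was -0.0758. Leaving out 1 array gave -0.23 to 0.28 for perichondral minus reserve, 0.18 to 0.45 for perichondral minus hypertrophic and -0.14 to 0.29 for proliferative minus hypertrophic. The cause of these shifts was not tested.

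Of 1047 values of single members under an alternative 1022 kept their side and sign, 4 passed the threshold and 21 changed sign. That count is not a measure of robustness. The age block, the fit without a variance trend, the fit of the compared zones alone and the filter on low values cannot change a difference. As no member passed in the main run, keeping its side meant only that a value still did not pass. With medians centred Rpl19 was 0.0399 for perichondral minus proliferative and Rpl7a -0.0245 with age. With age Rpl21, Rpl23a and Rpl35a were -0.17, -0.23 and -0.18 as deposited and -0.42, -0.48 and -0.42 centred. With the Gapdh ratio Rpl11 was 0.58 for perichondral minus reserve. The mean of all probe sets gave Rpl14 0.35 (reserve minus proliferative) and Rpl7l1 0.27 (reserve minus hypertrophic). Leaving out 1 array, perichondral minus reserve ran from -1.53 to 0.56 for Rpl11, -1.33 to 0.14 for Rps23 and -1.57 to 0.60 for Rpl3l. Perichondral minus proliferative ran from -1.11 to 0.15 for Rpl19, -2.24 to 0.18 for Rpl28 and -1.11 to 0.0343 for Rpl7a. Rps27l ran from -2.02 to 0.0221 (reserve minus proliferative), Rpl3l from -1.63 to 0.38 (perichondral minus hypertrophic) and Rpl7l1 from -1.45 to 0.0787 (reserve minus hypertrophic). Rheb, of the growth control list, ran from -0.0701 to 5.51 (perichondral minus hypertrophic). An array left alone in its zone was assumed to vary like the others. Of the 48 members, 5 lay below the other-organ level on all arrays, a coarse guide to background.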

Other observations

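The 70 mitochondrial ribosomal proteins, which build the separate ribosome of that organelle, had a perichondral minus hypertrophic median of 0.07, with 36 higher in the perichondral zone and 0 called by limma. Their largest differences were Mrps33 (3.31), Mrps26 (3.15), Mrpl12 (3.09) and Mrpl38 (-2.86), on probe sets of which 7 in 70 were above the other-organ level on all arrays.

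Of 14169 genes outside the members, Gpx8, a peroxidase of the endoplasmic reticulum, followed the mean of the members most closely over the 8 arrays (Pearson r = 0.95, a description). It read 12.02 and 10.61 in perichondral, 11.78 and 10.51 in reserve, 10.30 and 10.90 in proliferative and 10.52 and 9.28 in hypertrophic arrays. Patj, Ltbp3, Kdm8 and Adarb1 followed, each with r between 0.93 and 0.94.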
